A study of Mus musculus with 8 samples.

Results

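Conjunctival CD11b+ cells that lacked surface MHCII and carried CD64 were compared by their level of Ly6C in mice kept without desiccating stress. The Ly6C-inter and the Ly6C-low sample, which the study's gating groups as macrophages, were each set against the Ly6C-high sample, its monocyte gate. Of 754 genes measured, 132 were kept because their count was above the background of the panel in at least 1 of these 3 samples, and 37 of the 132 differed in the same direction from Ly6C-high cells in both comparisons. In 32 of the 37 the level was higher in both Ly6C-inter and Ly6C-low cells, and in 5 it was lower in both.

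The cells came from female C57BL/6J mice that the labels give as 10 weeks old, and no transgene, deletion or agent was used in the non-stressed group. Each population was 1 sample, pooled over several mice, so the 3 samples compared here have no replicates and no p-values are given. The series holds 8 samples, with MHCII+ cells of the same non-stressed mice and the 4 matching populations of mice under desiccating stress for 5 days (scopolamine in the drinking water and a fan draft). RNA was measured with the NanoString nCounter myeloid panel, in which a probe pair binds each transcript and its barcode is counted without amplification.

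Ly6C-high monocytes leave the blood through the chemokine receptor CCR2 and can mature in tissue, where they lose Ly6C and take on macrophage genes. Resident macrophages are known for the complement component C1q, for scavenger receptors such as CD163, CD36 and the mannose receptor, for lysosomal proteases, and for the surface protein F4/80, the product of Adgre1. Macrophages and monocytes both make chemokines of the CC family, and both switch on a set of immediate early genes within minutes of a stimulus, the preparation of tissue included.

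The total over the 754 genes was 2728 counts in Ly6C-high, 5948 in Ly6C-inter and 5799 in Ly6C-low cells. The background limit, which is the mean + 2 SD of the 8 probes without a target, was 15.1, 11.2 and 15.9 counts, and 24, 110 and 96 genes were above it. Counts were scaled to the mean total of the 3 samples, 4825, and a gene was called at a log2 ratio of at least 1 (2-fold) in either direction. The range in parentheses after a log2 ratio is the exact 95% Clopper-Pearson interval for a ratio of 2 counts, and it covers counting error only, not the variation between mice or pools. The median log2 ratio over all 754 genes was -0.80 for Ly6C-inter and -1.09 for Ly6C-low over Ly6C-high cells after Ly6C-high counts were multiplied by 1.77 and the others by 0.811 and 0.832. Without scaling it was 0.32 and 0.00, and most genes lay at background. Over the 132 kept genes the median was 0.57 and 0.72, and ratios below are read against these values. Fewer cells of a type in a pool and less RNA of a gene per cell cannot be told apart in such samples. Levels are compared between samples for 1 gene and not between genes, since probes differ in how well they bind.

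The labels were first held against marker transcripts. Adgre1, the F4/80 gene, had 3 counts in Ly6C-high, 37 in Ly6C-inter and 66 in Ly6C-low cells, and it was higher in both. Apoe, a lipid carrier of macrophages, had 15, 141 and 54 counts. Its log2 ratio was 2.11 (1.34 to 2.98) in Ly6C-inter cells and 0.76 (-0.09 to 1.69) in Ly6C-low cells, so it was called in the first only. Ccl2, the main ligand of CCR2, had 14, 182 and 57 counts and followed the same pattern, with log2 ratios of 2.58 (1.79 to 3.48) and 0.94 (0.08 to 1.90). Ccr2 ran the other way, with 12 counts in Ly6C-high cells and 1 count in each of the other samples, but 12 counts were under the background limit and the gene was not kept. Ly6c1, a gene of the Ly6C antigen, had 8, 8 and 7 counts, all below the limit, so it cannot tell whether the transcript followed the gates. Its log2 ratios of -1.12 (-2.74 to 0.49) and -1.28 (-2.98 to 0.38) came mostly from the scaling of nearly equal counts. Fcgr1, which encodes CD64, had 3, 9 and 6 counts and was also below the limit.

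Of 20 macrophage markers measured, 15 were kept, and 6 of these (Adgre1, C1qa, C1qb, C1qc, Cd163 and Ctsd) were higher in both populations, where 24.2% of all kept genes were. The other 9 kept markers were not called the same way in both. All 15 passed the filter only through Ly6C-inter or Ly6C-low cells. Over all 20 the median log2 ratio was 0.48 in Ly6C-inter and 0.46 in Ly6C-low cells, where that of all 754 genes was -0.80 and -1.09. Most of the 754 lay at background, where an equal count gives a negative ratio after scaling. Over the 15 kept markers the median was 1.94 and 0.97, where that of all 132 kept genes was 0.57 and 0.72. Of 8 monocyte markers measured, 5 were kept, and 3 of these (Chil3, Fn1 and S100a4) were lower in both, where 3.79% of all kept genes were. Over all 8 the median was -2.29 and -1.34. Mertk, a receptor for dying cells that marks resident macrophages, had 7, 4 and 1 counts, and Cx3cr1 had 5, 1 and 10, so neither defining gene was above background in any of the 3 samples. Above the limit were 0, 15 and 12 macrophage markers in Ly6C-high, Ly6C-inter and Ly6C-low cells, and 3 monocyte markers in each of the samples.

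In the comparison of Ly6C-inter with Ly6C-high cells, 51 of the 132 kept genes (38.6%) were higher and 10 (7.58%) were lower. In Ly6C-low cells 47 (35.6%) were higher and 14 (10.6%) were lower. The 32 genes higher in both made up 24.2% of the kept genes and the 5 lower in both 3.79%. Both comparisons share the Ly6C-high sample, so a low or high count there moves both ratios together. Of the 132 kept genes, 108 passed only through Ly6C-inter or Ly6C-low cells, 31 of the 32 higher genes among them, and such genes could pass only where they were high, so the counts are no support for the direction. With no filter, 43 of the 754 genes (5.7%) were higher in both and 289 (38.3%) were lower in both. Of the 8 probes without a target, 7 were lower in Ly6C-inter cells, 5 in Ly6C-low cells and 4 in both. None was higher in either, so the lower direction is also the one that empty probes took after scaling. Without scaling 81 of the 132 genes were higher in both and 2 were lower in both, and all 32 higher genes were among the 81. Leaving out the scaling raises every ratio, so none of the 32 could lose its call that way.

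**Figure D1:**
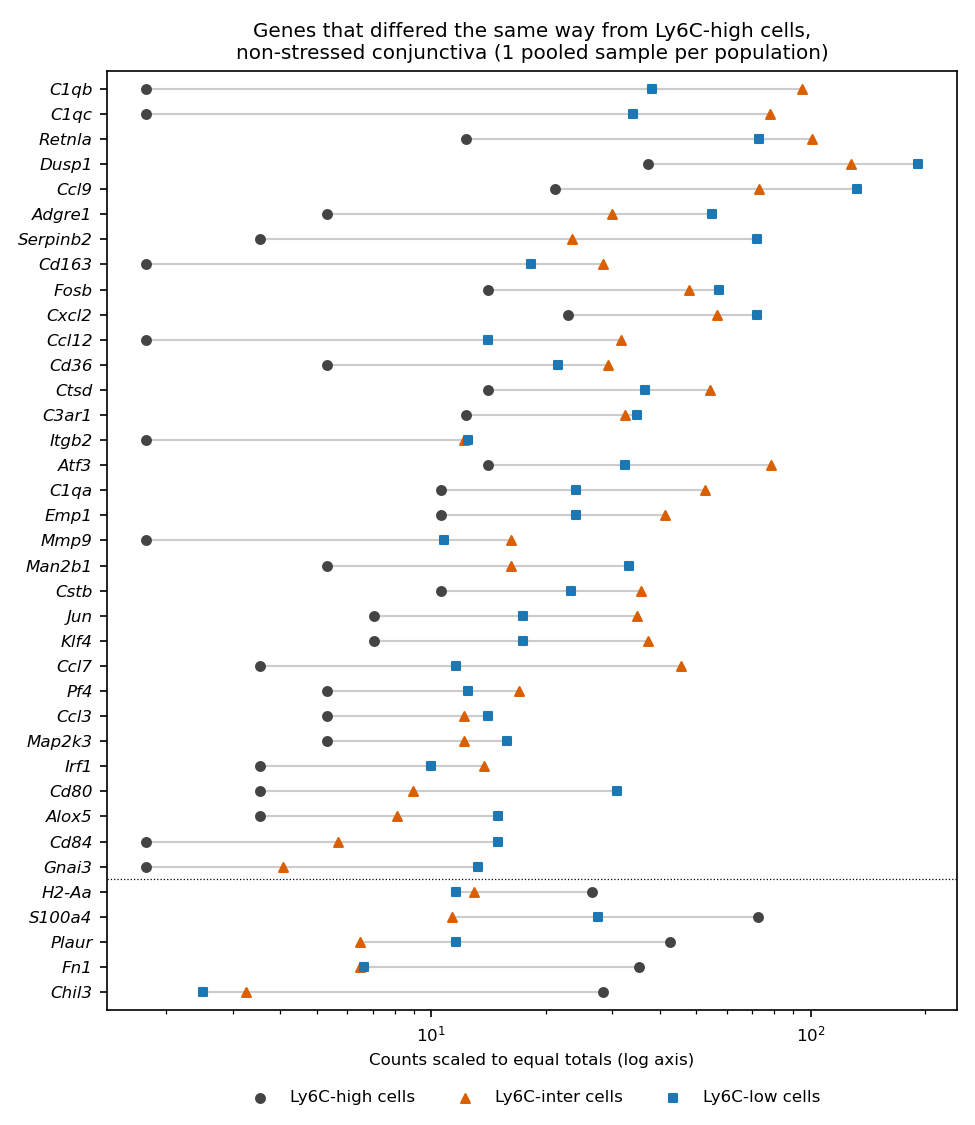
Level of each of the 37 genes in the 3 non-stressed samples, as counts scaled to equal totals on a log axis, with 1 point per pooled sample and no error bars. Above the dotted line the Ly6C-inter and Ly6C-low points of 32 genes lie to the right of the Ly6C-high point, and below it those of 5 genes lie to the left.

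Both counting intervals lay beyond 0 in 16 of the 32 higher genes and in 4 of the 5 lower genes. In the other 16 higher genes at least 1 interval included 0. A probe without a target, with 11, 9 and 7 counts, also had both intervals below 0 (-2.86 to -0.0057 and -3.35 to -0.24). Intervals below 0 therefore do not by themselves set a lower gene apart from background. Counts in the Ly6C-high sample were small throughout, with 1 count in 8 of the 32 genes and 1 to 3 in 19. The table holds no value under 1, so a value of 1 can stand for 1 count or for less.

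**Figure D2:**
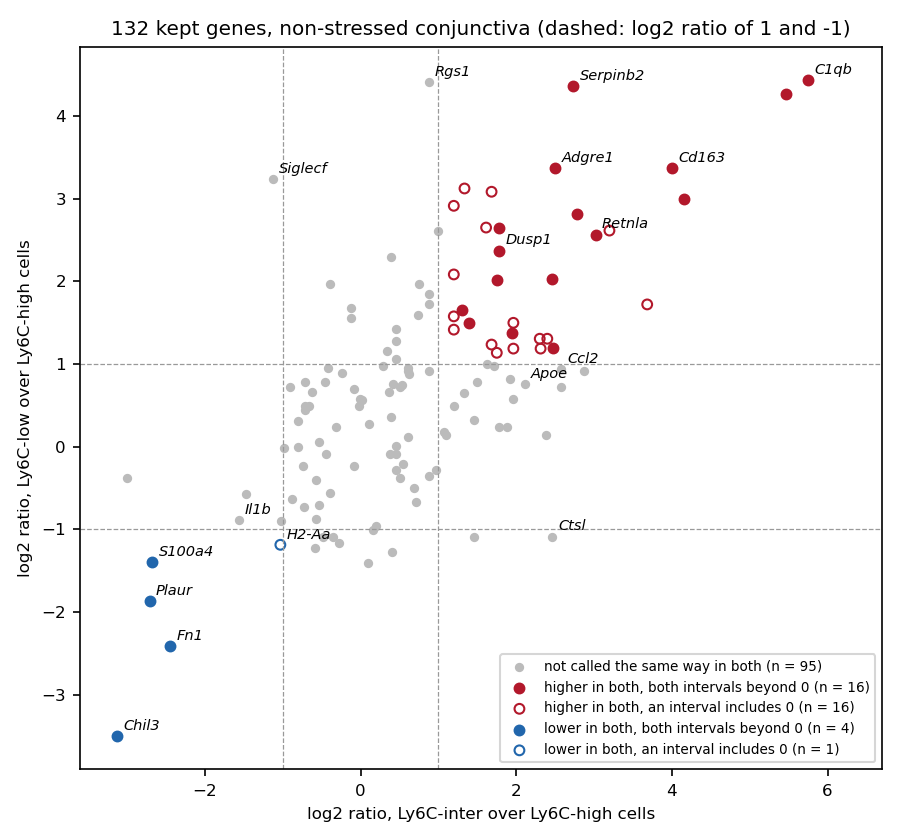
Log2 ratio of Ly6C-low (vertical axis) against that of Ly6C-inter cells (horizontal axis), each over Ly6C-high cells, for the 132 kept genes, with 1 point per gene and dashed lines at 1 and -1. Filled red points are the 16 genes higher in both with both intervals beyond 0, among them C1qb at 5.75 and 4.44, and filled blue points the 4 lower genes, with Chil3 at -3.12 and -3.50.

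C1qa, C1qb and C1qc, which encode the chains of the first component of the classical complement pathway, were higher in both populations. C1qb had 1 count in Ly6C-high, 117 in Ly6C-inter and 46 in Ly6C-low cells. Its log2 ratios were 5.75 (3.24 to 11.06) and 4.44 (1.89 to 9.77). C1qc had 1, 96 and 41 counts, with log2 ratios of 5.46 (2.95 to 10.78) and 4.27 (1.71 to 9.61). The 3 samples thus fell in the same order for both genes, lowest in Ly6C-high and highest in Ly6C-inter cells, and their Ly6C-inter to Ly6C-low log2 ratios of 1.31 (0.81 to 1.84) and 1.19 (0.65 to 1.76) were beyond counting error. C1qa, the remaining chain, had 6, 65 and 29 counts and the same order, with log2 ratios of 2.31 (1.11 to 3.81) and 1.19 (-0.11 to 2.74). C3ar1, the receptor of the C3a fragment, had 7, 40 and 42 counts and did not differ beyond counting error between Ly6C-inter and Ly6C-low cells. C5ar1, the C5a receptor, had 4, 33 and 15 counts and was called in Ly6C-inter cells only. Of 8 complement genes measured, 6 were kept, all through Ly6C-inter or Ly6C-low cells only, and 4 of these were higher in both, against 24.2% of all kept genes. Over all 8 the median log2 ratio was 1.65 and 1.0.

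Receptors of resident and alternatively activated macrophages were among the higher genes. Cd163, the scavenger receptor for haemoglobin bound to haptoglobin, had 1, 35 and 22 counts, and log2 ratios of 4.0 (1.43 to 9.35) and 3.37 (0.74 to 8.74). Cd36, which takes up fatty acids and oxidised lipoprotein, had 3, 36 and 26 counts, with log2 ratios of 2.46 (0.80 to 4.80) and 2.03 (0.32 to 4.40). Neither gene differed between Ly6C-inter and Ly6C-low cells beyond counting error. Mrc1, the mannose receptor, had 6, 43 and 25 counts. It was called in Ly6C-inter cells at 1.72 (0.48 to 3.24) and fell just short in Ly6C-low cells at 0.97 (-0.35 to 2.55). Retnla, a secreted product of alternative activation, had 7 counts in Ly6C-high, 124 in Ly6C-inter and 88 in Ly6C-low cells. Its log2 ratios were 3.02 (1.94 to 4.37) and 2.56 (1.46 to 3.92). Its raw count in MHCII+ cells of the same mice was 3144, in a sample with a far larger total of 39677 counts. Chil3, another product grouped with alternative activation, was lower in both, so the genes of that list did not move together. Of 14 measured, 7 were kept, 3 were higher in both (Retnla, Cd163 and Klf4) and 1 was lower.

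Carry-over of MHCII+ cells was checked on their defining transcripts. H2-Aa had 3419 counts in the MHCII+ sample and 15, 16 and 14 in Ly6C-high, Ly6C-inter and Ly6C-low cells, and Cd74 had 5212 against 22, 55 and 24. C1qb had 404 counts in MHCII+ cells and 1, 117 and 46 in the same samples. These are raw counts, and the total was 39677 in MHCII+ cells against 2728, 5948 and 5799, so they do not rank the samples. Cd74 was higher in Ly6C-inter than in Ly6C-low cells, at a log2 ratio of 1.16 (0.44 to 1.92). Of the 32 higher genes 31 were above the background limit in MHCII+ cells too, and Serpinb2, with 7 counts there, was the exception. In that sample 291 of all 754 genes and nearly all of the 132 kept genes were above the limit. The 31 therefore do not set the higher genes apart from the other kept genes. The part of MHCII+ cells in the ratios was not tested.

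Chemokines formed the next group. Ccl9, a CC chemokine that draws myeloid cells, had 12, 90 and 159 counts and log2 ratios of 1.78 (0.91 to 2.79) and 2.64 (1.80 to 3.62). Ccl12, a mouse ligand of CCR2, had 1, 39 and 17 counts, with log2 ratios of 4.16 (1.60 to 9.50) and 3.0 (0.33 to 8.38). Ccl7, also a CCR2 ligand, had 2, 56 and 14 counts, with log2 ratios of 3.68 (1.76 to 6.76) and 1.72 (-0.40 to 4.90). The CCR2 ligands Ccl2, Ccl7 and Ccl12 were thus highest in Ly6C-inter cells, with Ly6C-inter to Ly6C-low log2 ratios of 1.64 (1.20 to 2.09), 1.96 (1.10 to 2.92) and 1.16 (0.31 to 2.08), whereas Ccl9 was highest in Ly6C-low cells at -0.86 (-1.25 to -0.48). Ccl8, also known to bind CCR2, had 3, 34 and 7 counts and was called in Ly6C-inter cells only. Ccl3, an inflammatory chemokine of macrophages, had 3, 15 and 17 counts and both of its intervals included 0. Cxcl2, a neutrophil attractant, had 13, 70 and 87 counts, with log2 ratios of 1.30 (0.44 to 2.28) and 1.65 (0.81 to 2.62), and Pf4 had 3, 21 and 15 counts with intervals that included 0. All 21 CC chemokines of the list were measured, 8 were kept, all through Ly6C-inter or Ly6C-low cells only, and 4 of the 8 were higher in both and none lower, against 24.2% and 3.79% of all kept genes. Over all 21 the median log2 ratio was -0.12 and -0.50. The other 13 CC chemokines were at background in all 3 samples.

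Of 13 kept immediate early and activation response genes, 5 were higher in both populations and 8 were not, against 24.2% of all kept genes that were. Dusp1, a phosphatase that switches off MAP kinases, had 21, 157 and 231 counts and was the sole higher gene above the background limit in Ly6C-high cells as well. Its log2 ratios were 1.78 (1.12 to 2.51) and 2.37 (1.73 to 3.09). Fosb, a subunit of the AP-1 transcription factor, had 8, 59 and 69 counts, with log2 ratios of 1.76 (0.69 to 3.04) and 2.02 (0.96 to 3.29). Atf3, a stress-induced partner of AP-1 proteins, had 8, 97 and 39 counts, with log2 ratios of 2.48 (1.44 to 3.73) and 1.20 (0.08 to 2.51). Jun had 4, 43 and 21 counts and Klf4 4, 46 and 21, and for both the Ly6C-low interval included 0. Atf3, Jun and Klf4 were higher in Ly6C-inter than in Ly6C-low cells and Dusp1 was lower, each beyond counting error, while Fosb was not separated. Over all 19 genes of this list measured, the median log2 ratio was 0.63 and 0.72. Nr4a1, Cebpb and Nfkbia of the same list were not called in either comparison.

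Lysosomal and surface genes made up most of the rest of the 32, all below the background limit in Ly6C-high cells. Ctsd, the protease cathepsin D, had 8, 67 and 44 counts, with log2 ratios of 1.94 (0.88 to 3.21) and 1.37 (0.27 to 2.67). Other kept lysosomal genes did not all go this way. Ctss, the protease cathepsin S, had 20, 36 and 19 counts and was lower in Ly6C-low cells only, at -1.16 (-2.15 to -0.18). Grn, with 8, 23 and 7 counts, was also lower in Ly6C-low cells only, and Cd68, with 13, 19 and 15, was not called. Lipa, with 3, 18 and 8 counts, was higher in Ly6C-inter cells only. Adgre1, given above, had log2 ratios of 2.50 (0.84 to 4.84) and 3.37 (1.76 to 5.69). Itgb2, the shared chain of the beta-2 integrins, had 1, 15 and 15 counts, with log2 ratios of 2.78 (0.08 to 8.18) and 2.82 (0.12 to 8.21). Itgam, its CD11b partner and a marker of the sort, had 7, 21 and 31 counts and was called in Ly6C-low cells only, at 1.06 (-0.15 to 2.49). Man2b1, a lysosomal mannosidase, had 3, 20 and 40 counts, and Cstb, an inhibitor of cathepsins, had 6, 44 and 28, each with 1 interval that included 0. Mmp9, a matrix protease, had 1, 20 and 13 counts. The rest of the 32 were Emp1, Map2k3, Irf1, Cd80, Alox5, Cd84 and Gnai3, with 1 to 6 counts in Ly6C-high, 5 to 51 in Ly6C-inter and 12 to 37 in Ly6C-low cells. At the threshold, Cstb was just inside with a smaller log2 ratio of 1.13 and Gadd45b, with 4, 27 and 17 counts, just outside with 1.0 after rounding, short of the threshold.

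Serpinb2, an inhibitor of plasminogen activators, had 2, 29 and 87 counts. Its log2 ratios were 2.73 (0.75 to 5.85) and 4.35 (2.46 to 7.42). The Ly6C-low sample was above Ly6C-inter by a factor outside counting error, at a Ly6C-inter to Ly6C-low log2 ratio of -1.62 (-2.28 to -1.0). Among the 32 higher genes, 11 were higher in Ly6C-inter than in Ly6C-low cells beyond counting error, 8 were lower and 13 were not separated. The 8 were Serpinb2, Adgre1, Ccl9, Dusp1, Man2b1, Cd80, Cd84 and Gnai3.

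Transcripts known from eosinophils moved with Ly6C-low cells. Siglecf, a sialic acid-binding receptor of eosinophils, had 1 count in Ly6C-high, 1 in Ly6C-inter and 20 in Ly6C-low cells. Ccr3, the eotaxin receptor, had 3, 5 and 25 counts, and Alox15, a lipoxygenase of eosinophils and some macrophages, had 4, 8 and 25. The list of 9 such genes was drawn up after these counts were seen. Of 7 measured, 3 were above the limit in Ly6C-low cells and none in the other samples, and the summed counts were 13, 23 and 79. Epx, Prg2, Ear6 and Il5ra, defining genes of the lineage, had 1 to 6 counts in the 3 samples. The sort took CD64+ cells and removed those with the lineage markers NK1.1, Ly6G, CD3e or B220. The part of eosinophils in the 8 genes that were highest in Ly6C-low cells was not tested. Of the markers of other lineages, 1 dendritic cell gene of 9 measured (Cd83) and 2 neutrophil genes of 11 (Cxcl2 and S100a9, the latter with 1, 16 and 4 counts) were above the limit in any sample, and none of 3 T and NK cell, 1 B cell, 8 mast cell and basophil, 1 epithelial and 8 endothelial and fibroblast genes was.

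The 5 genes that were lower in both populations were Chil3, Fn1, Plaur, S100a4 and H2-Aa. Chil3, the chitinase-like protein Ym1 of monocytes, had 16 counts in Ly6C-high, 4 in Ly6C-inter and 3 in Ly6C-low cells. Its log2 ratios were -3.12 (-5.16 to -1.49) and -3.50 (-5.92 to -1.70). Fn1, the matrix protein fibronectin, had 20, 8 and 8 counts, with log2 ratios of -2.45 (-3.84 to -1.20) and -2.41 (-3.80 to -1.16). Both genes were above the background limit in Ly6C-high cells alone, and the unscaled counts had the same order. Plaur, the urokinase receptor, had 24, 8 and 14 counts, with log2 ratios of -2.71 (-4.07 to -1.51) and -1.87 (-2.93 to -0.86). S100a4, a calcium-binding protein of motile cells, had 41, 14 and 33 counts, with log2 ratios of -2.67 (-3.66 to -1.77) and -1.40 (-2.11 to -0.70). Plaur and S100a4 lost the call in Ly6C-low cells without scaling, at -0.78 and -0.31. H2-Aa, an MHCII gene on which all 3 populations were gated as negative, had nearly the same raw count in each, and its log2 ratios of -1.03 (-2.14 to 0.09) and -1.19 (-2.35 to -0.04) turned to 0.09 and -0.10 without scaling. Il1b, a cytokine of activated monocytes, had 34, 25 and 39 counts. It was lower in Ly6C-inter cells at -1.57 (-2.37 to -0.78) and not called in Ly6C-low cells at -0.89 (-1.59 to -0.18). Itgal was the kept gene just outside the threshold, at -1.03 and -0.90.

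The 37 genes were then followed in the stressed samples, which the selection did not use. Of the 32 higher genes 10 were again higher in both stressed populations, against 12.9% of the 132 kept genes. They were C1qa, C1qb, C1qc, C3ar1, Cd163, Cd36, Retnla, Ccl12, Dusp1 and Pf4. C1qc had 1, 103 and 35 counts in stressed Ly6C-high, Ly6C-inter and Ly6C-low cells, with log2 ratios of 4.83 and 5.08, and Retnla had 4, 114 and 55, with 2.98 and 3.74. None of the 32 was lower in both. Of the 5 lower genes, Chil3, Fn1 and S100a4 were again lower in both, against 4.55% of the kept genes. Chil3 had 70, 8 and 3 counts and Fn1 29, 3 and 1.

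The stressed Ly6C-inter sample stood apart, with a total of 14201 counts against 3929 and 4056, and with Emp1 at 1436, S100a11 at 891 and Ly6c1 at 583 counts, which lowers the scaled value of its other genes. Under stress Ccl2, Ccl7 and Ccl12 were not highest in Ly6C-inter cells after scaling. Their Ly6C-inter to Ly6C-low log2 ratios were -0.42 (-0.86 to 0.04), -1.35 (-2.34 to -0.32) and -1.07 (-1.96 to -0.14). The raw counts in stressed Ly6C-high, Ly6C-inter and Ly6C-low cells were 11, 152 and 58 for Ccl2. They were 6, 22 and 16 for Ccl7 and 4, 30 and 18 for Ccl12, so each was highest in Ly6C-inter cells. The scaled order thus rests on the factors of 0.521 for Ly6C-inter and 1.82 for Ly6C-low cells. In the stressed Ly6C-low sample alone 18 of the 32 genes were higher than in stressed Ly6C-high cells, against 26.5% of the kept genes, and the log2 ratio was above 0 for 29. In the stressed Ly6C-inter sample 13 were higher and the ratio was above 0 for 22, with the label marker Adgre1 at -0.32. For the 13, the 22 and the 29 the share of all kept genes was not counted, so they are no result about the 32 genes. The median log2 ratio of the 32 genes was 0.63 in stressed Ly6C-inter and 1.23 in stressed Ly6C-low cells, where that of the 132 kept genes was -0.31 and 0.19. The difference between the non-stressed and stressed ratios was not tested, for want of replicates.

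**Figure D3:**
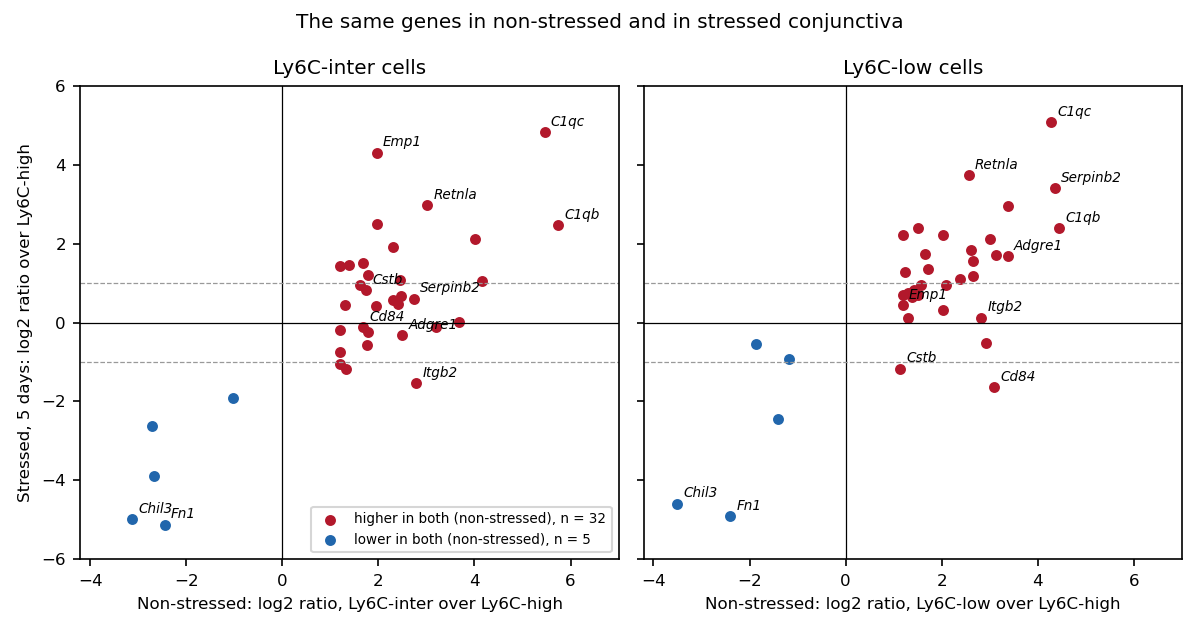
Log2 ratio over Ly6C-high cells in the stressed samples (vertical axis) against that in the non-stressed samples (horizontal axis) for the 37 genes, with Ly6C-inter cells in the left and Ly6C-low cells in the right panel and dashed lines at 1 and -1. Of the 32 red genes 13 lie at or above 1 in the left panel and 18 in the right. The share of the 132 kept genes was 26.5% for the right panel and was not counted for the left. All 5 blue genes lie below 0 in both panels, where the median of the kept genes was -0.31 and 0.19.

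Promoters of 4 of the higher genes are shown to give the sequence beside the readout, from RefSeq on GRCm38.p6, 250 bases before to 50 after the transcript start. Entries were found for 26 of the 32 higher genes (29 promoters) and 4 of the 5 lower genes. Each was searched on both strands for TGACGTCA (the cAMP response element), TGANTCA (a loose AP-1 pattern) and GAGGAAGT (a PU.1 site, PU.1 being the master regulator of macrophages). The AP-1 consensus has C or G at the N, whereas the pattern takes any base there. Matches are in capitals below. The 4 were picked after the search, to show each motif, from 6 genes that hold a match and had both intervals beyond 0, the others being Retnla and C3ar1. C1qc holds the PU.1 letters and Dusp1 the cAMP response element. Ccl9 and Serpinb2 hold the loose AP-1 pattern as TGAATCA, which is not the consensus.
C1qc, chr4:136892865-136893164, minus strand: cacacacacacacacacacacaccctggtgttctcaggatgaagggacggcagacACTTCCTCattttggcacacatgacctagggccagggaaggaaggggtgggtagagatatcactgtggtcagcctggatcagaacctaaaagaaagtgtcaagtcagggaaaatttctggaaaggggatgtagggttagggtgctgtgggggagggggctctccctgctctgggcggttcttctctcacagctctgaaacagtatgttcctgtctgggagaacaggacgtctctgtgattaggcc
Dusp1, chr17:26508423-26508722, minus strand: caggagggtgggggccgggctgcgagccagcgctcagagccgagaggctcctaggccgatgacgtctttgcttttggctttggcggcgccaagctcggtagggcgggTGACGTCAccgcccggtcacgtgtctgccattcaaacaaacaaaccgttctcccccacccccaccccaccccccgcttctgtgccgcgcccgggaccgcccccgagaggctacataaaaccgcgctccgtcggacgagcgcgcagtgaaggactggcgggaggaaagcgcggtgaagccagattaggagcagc
Ccl9, chr11:83578587-83578886, minus strand: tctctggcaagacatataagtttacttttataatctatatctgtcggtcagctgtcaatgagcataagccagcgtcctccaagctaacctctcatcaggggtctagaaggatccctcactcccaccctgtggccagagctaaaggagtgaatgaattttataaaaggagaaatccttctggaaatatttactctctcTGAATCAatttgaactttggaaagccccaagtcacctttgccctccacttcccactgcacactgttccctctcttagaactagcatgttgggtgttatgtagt
Serpinb2, chr1:107511173-107511472, plus strand: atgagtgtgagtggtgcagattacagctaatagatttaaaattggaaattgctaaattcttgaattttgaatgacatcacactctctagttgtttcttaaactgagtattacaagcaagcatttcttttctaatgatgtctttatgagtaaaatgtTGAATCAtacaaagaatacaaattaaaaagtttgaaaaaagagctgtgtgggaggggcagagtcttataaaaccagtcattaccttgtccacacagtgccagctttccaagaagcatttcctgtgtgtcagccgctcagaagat

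The cAMP response element was found in 1 of the 29 promoters (3.45%) and in 1.79% of all 32851 promoters of that table. The loose AP-1 pattern was found in 7 of the 29 (24.1%), of C3ar1, Ccl9, Cd80, Cd84, Emp1 and Serpinb2, and in 7.81% of all. Matches to the consensus alone were not counted. Serpinb2 has overlapping promoters that share a single site, which was counted for each. The PU.1 letters were found in 3 (10.3%), of C1qc, Pf4 and Retnla, and in 3.20% of all. A match describes the letters in this window only, and the few promoters allow no comparison of the shares.

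How far each call rested on background was read from 8 other treatments of scaling and background. Called in both comparisons under all of them were 11 of the 32 higher genes, which were C1qb, C1qc, Retnla, Dusp1, Ccl9, Adgre1, Fosb, Cxcl2, Ctsd, C3ar1 and Atf3. Of the other 21, 16 lost the call under 1 treatment only, the raising of every count to the limit of its sample, which takes away any ratio that lies below the limit. None of the 5 lower genes was called under all 8, and Fn1 and Chil3 lost the call under that treatment alone.

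**Figure D4:**
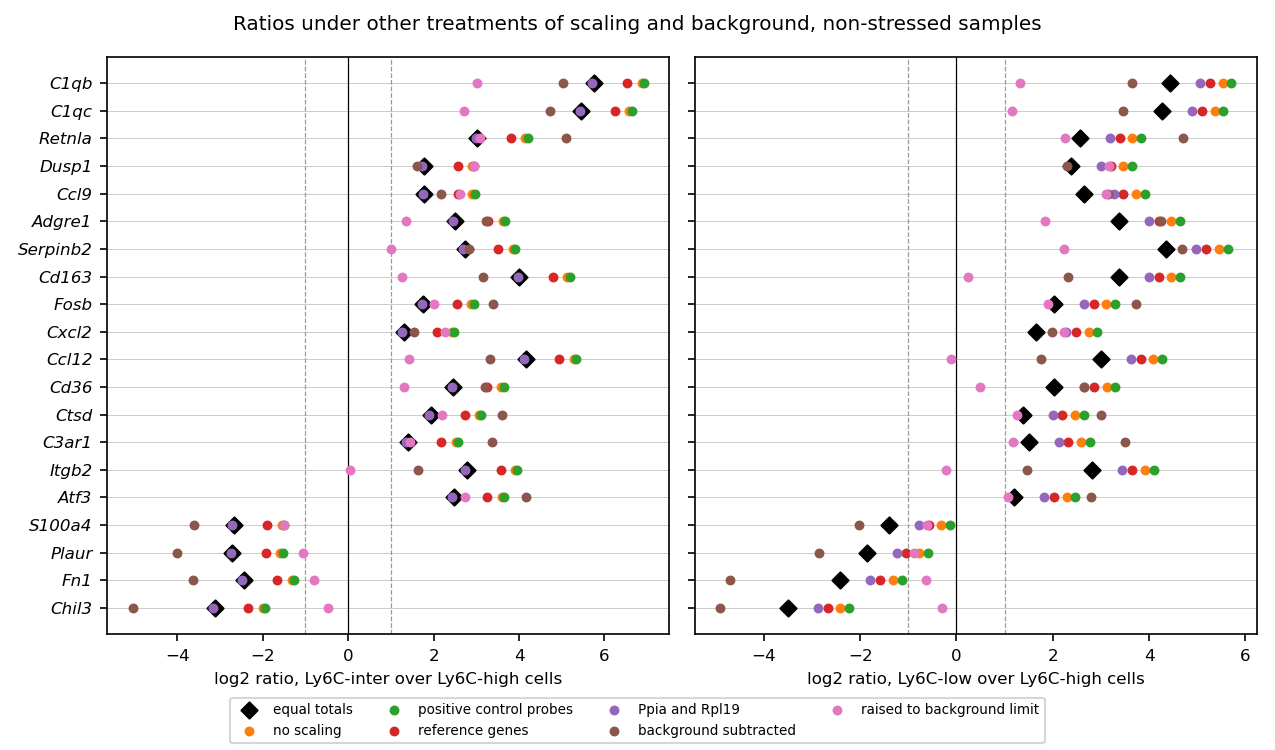
Log2 ratios over Ly6C-high cells of the 20 genes with both intervals beyond 0, under scaling to equal totals (diamonds) and 6 other treatments of scaling or background (circles), with Ly6C-inter cells on the left, Ly6C-low cells on the right and dashed lines at 1 and -1. The 16 higher genes stay above 0 in Ly6C-inter cells, Ccl12 and Itgb2 drop to -0.12 and -0.22 in Ly6C-low cells when all counts are raised to the background limit, and the 4 lower genes stay below 0.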

How the data were processed

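RNA of 8 sorted conjunctival populations, 1 pooled sample each, was measured on NanoString's nCounter panel for mouse myeloid innate immunity. The authors deposited raw barcode counts for 754 genes, 8 probes without a target and 6 positive control probes. They name nSolver as their software, and the deposited counts carry no normalisation. Column names were matched to sample titles, and 744 gene names matched a RefSeq symbol and 9 a synonym.

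The Ly6C-inter and Ly6C-low samples of non-stressed mice were each compared with Ly6C-high. Counts were scaled to equal totals over the 754 genes (2728 to 5948 counts). Genes above the mean + 2 SD of the probes without a target in at least 1 of the 3 samples were kept. Ratios have exact 95% Clopper-Pearson intervals, which cover counting error only. They were checked on simulated counts without background, and only for genes with enough expected counts in Ly6C-high cells. The check does not reach genes expected to have few counts there. No gene test was run, with 1 sample per population. Work was done in Python (version 3.11.15) with scipy 1.17.1 for intervals, pandas 2.3.3 and numpy 2.4.6 for tables, and matplotlib 3.10.9 for figures.

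The members and gene lists were chosen with earlier results of these data known. Named genes are the 37 members, the label markers, list genes and those next to the threshold. Promoters came from RefSeq on GRCm38.p6. Alternatives covered scaling, background, the filter and the threshold.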

Additional observations from a re-analysis of the deposited data

Results flagged for a closer look

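The log2 ratios over Ly6C-high cells of Ctsl, Pros1 and Siglecf had opposite signs in the 2 populations, and with 1 sample in each the difference was not tested. For each, 1 of the signs came from equal raw counts of 1 or 2 and is the scaling alone, since any equal count takes -1.12 in Ly6C-inter and -1.09 in Ly6C-low cells. Ctsl, the protease cathepsin L, had 1 count in Ly6C-high, 12 in Ly6C-inter and 1 in Ly6C-low cells, and its log2 ratio of Ly6C-inter over Ly6C-low cells was 3.55. Pros1, a bridging protein for the uptake of dying cells, had 2, 12 and 2 counts, and that ratio was 2.55. For Siglecf, with 1, 1 and 20 counts, it was -4.36.

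For 5 of the 32 higher genes a stressed ratio passed 2-fold in the other direction, which was not tested either. The sign alone was as in non-stressed mice for 22 of the 32 in Ly6C-inter and 29 in Ly6C-low cells, and the matching share of all kept genes was not counted. In stressed Ly6C-inter cells, Itgb2 had a log2 ratio over Ly6C-high cells of -1.53, Cd80 of -1.18 and Alox5 of -1.05. These rest on 10, 8 and 7 counts in a sample in which Emp1 alone had 1436. In stressed Ly6C-low cells, Cstb had a log2 ratio of -1.17 and Cd84 of -1.63, and Cd84 had 3 counts in stressed Ly6C-high cells and 1 in stressed Ly6C-low cells.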

How the results depend on the processing

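No paired analysis was possible because each population was 1 sample and no replicate numbers were given. With 1 sample each, no sample could be left out. Depth limits every ratio through the Ly6C-high sample, which held 2728 counts, 24 genes above background and 1 to 3 counts for 19 of the 32 higher genes.

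The counts to compare with are 51 genes higher and 10 lower in Ly6C-inter cells, 47 higher and 14 lower in Ly6C-low cells, 32 and 5 in both, and 10 of the 32 again higher in both stressed populations. Without scaling they were 95 and 5, 98 and 2, 81 and 2, and 18. With scaling on the positive control probes they were 95 and 5, 101 and 2, 83 and 2, and 18. With scaling on 14 reference genes they were 84 and 5, 88 and 3, and 68 and 3. Of the 14, 3 were kept and 2 were above the limit in Ly6C-high cells, so that scaling rests mostly on counts at background. With scaling on Ppia and Rpl19, 80 genes were higher and 3 lower in Ly6C-low cells, 3 were lower in both, and the stressed count was 20. With the mean of the probes without a target subtracted, 74 were higher and 29 lower in Ly6C-low cells, and 53 and 8 in both. With counts raised to the background limit, 2 were lower in Ly6C-inter cells, 30 higher and 0 lower in Ly6C-low cells, 20 and 0 in both, and the stressed count was 5. With no filter, 90 were higher and 369 lower in Ly6C-inter cells, 80 higher and 413 lower in Ly6C-low cells, and 289 lower in both. With a filter at 3 SD, 6 were lower in Ly6C-inter cells. With the filter on the mean of the samples, 32 were higher and 6 lower in Ly6C-inter cells, 7 lower in Ly6C-low cells and 3 lower in both. At a log2 threshold of 1.5, 6 were lower in Ly6C-inter and 3 in Ly6C-low cells, and 16 were higher and 3 lower in both. At a threshold of 2 they were 21 and 5, 22 and 2, and 10 and 2. Called by an interval beyond 0, 9 were lower in Ly6C-low cells and 17 higher in both. All 32 higher genes stayed higher in both under each scaling alternative, as did 27 with background subtracted and 11 with counts raised to the limit. The scaling alternatives raised the median ratio over all genes or left it nearly unchanged. A higher gene could therefore hardly lose its call under them, and its staying is no support for the call.

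Direction turned for genes near background. The log2 ratio of H2-Aa in Ly6C-inter cells was 0.093 without scaling, 0.15 on the positive control probes and 0.13 with counts raised to the limit, and in Ly6C-low cells it was 0.086 on the positive control probes. That of Itgal in Ly6C-inter cells was 0.10, 0.15 and 0.042 under the same 3. With background subtracted, Cd84 was -0.34 and Gnai3 -1.80 in Ly6C-inter cells. With counts raised to the limit, Alox5, Cd80, Cd84 and Gnai3 were -0.39 in Ly6C-inter cells. In Ly6C-low cells Alox5 and Cd84 were then -0.040, Ccl12 and Ccl3 -0.12, Gnai3 -0.21, and Ccl7, Irf1, Itgb2, Mmp9 and Pf4 -0.22. For genes below both limits, -0.22 is the ratio of the 2 limits after the raised counts were scaled to equal totals.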
